A study of Mus musculus with 45 samples.

Results

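The voltage-gated sodium, calcium and HCN channel genes were examined in the cortex, hippocampus and striatum of adult mice that were wild type (WT), heterozygous (Shank3-HT) or homozygous (Shank3-HM) for a deletion in Shank3. Members were the genes whose symbols name a sodium channel α or β subunit (Scn), a calcium channel α1 subunit (Cacna1), an α2δ subunit (Cacna2d), a calcium channel β subunit (Cacnb) or an HCN channel (Hcn), with a mean normalized count of at least 10 in one region or more. Of the 18135 genes in the table, 33 were members, and 17401 genes in all reached that mean in some region. The members were 8 sodium channel α genes, 4 sodium channel β genes, 9 calcium channel α1 genes, 4 α2δ genes, 4 calcium channel β genes and 4 HCN genes. The mean of 10 was reached in all regions by 32 members, while Scn10a reached it in the cortex alone, with a mean of 12.9 there, 1.71 in the hippocampus and 4.87 in the striatum. Cacna1s was just inside the limit in the cortex, with a mean of 10.6, and no gene of these families in the table fell below it in every region. Scn4a, Scn11a and Cacna1f are not analysed here. Scn10a thus became a member only through the region where it was high, and its values by region are described with no test result of its own. The counts and medians of differences between regions include its limma results, except where they are given without it.

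The mice were male, on the C57BL/6J strain and 13 weeks old. Shank3-HT and Shank3-HM mice carried a deletion of part of the exons of Shank3, a postsynaptic scaffold gene, on 1 or on both copies, and WT mice carried none. Each of the 9 combinations of region and genotype held 5 samples, 45 in all, and the cortex was the prefrontal cortex. The labels call the Shank3-HM samples knock-out, and they do not say whether the regions with the same number came from the same mouse. The paper gives its group sizes as mice, listed jointly for the regions of a genotype, so regions may have shared animals. The main tests between regions and of interactions treated all samples as independent. Only the alternative with the replicate number as a block allowed for shared animals. P values measure the spread between the samples of a group.

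Sodium channel α subunits form the pore that carries the upstroke of the action potential, and β subunits modify its gating and act as adhesion molecules. Calcium channel α1 subunits form the calcium pores of presynaptic terminals, dendrites and cell bodies, and α2δ and β subunits bring these pores to the membrane. HCN channels open on hyperpolarization, are gated by cyclic nucleotides, and set resting potential and dendritic integration. Which subunits a neuron makes differs between cortical and hippocampal pyramidal neurons and the GABAergic spiny projection neurons that make up most of the striatum.

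The deposited values are normalized counts whose totals were 26118607 to 29568983 per sample. The sequencing depth is not given in the sources used here. Shank3, summed over all its exons, differed between Shank3-HM and WT mice by -0.98 ± 0.07, -1.06 ± 0.04 and -1.11 ± 0.07 for cortex, hippocampus and striatum (log2, SE, n = 5 against 5, limma, adjusted p at most 4.76e-07). In Shank3-HT mice it fell by 0.43 in the hippocampus and 0.50 in the striatum (limma, adjusted p = 0.000219 and 0.0494), and the value in the cortex was -0.38 (adjusted p = 0.288). In that cortex comparison Shank3 had the smallest p value of all genes (limma, unadjusted p = 2.24e-05). Every Shank3-HT value there, at most 6607, lay below every WT value, at least 6985. No gene was called in that comparison, the mutated gene included. All 12 markers of striatal spiny projection neurons were highest in the WT striatum, 8 of 10 markers of cortical projection neurons in the WT cortex, and 7 of 8 markers of hippocampal projection neurons in the WT hippocampus. Markers of other cell types differed between the regions too. Of the 10 oligodendrocyte markers, 10 were highest in the WT striatum, and they summed to 193359 to 257445 there, 149811 to 162689 in the hippocampus and 69530 to 90800 in the cortex. Of the 10 microglia markers, 9 were highest in the striatum, with sums of 12658 to 14798, against 9881 to 11385 in the hippocampus and 10006 to 12615 in the cortex. Of the 10 GABAergic interneuron markers, 7 were highest in the cortex, although their sum was highest in the striatum, at 39488 to 40335 against 27937 to 29402 in the cortex and 19617 to 22773 in the hippocampus. All 8 choroid plexus markers were highest in the hippocampus. Some sums also differed between genotypes. In the striatum the interneuron markers summed to 43720 to 46138 in Shank3-HM mice, above all WT samples, and to 37620 to 44111 in Shank3-HT mice. The oligodendrocyte markers summed to 211263 to 358137 in Shank3-HT and 215235 to 326967 in Shank3-HM striatum, and both overlapped WT. The part of these cell types in the differences between regions or genotypes was not tested. Some libraries stood apart. In cortex Shank3-HM replicate 2 the spiny projection neuron markers summed to 65369, against 9451 to 11889 in the other cortex samples, and the cortical markers summed to 52329, against 81155 to 97823. The cortical markers summed to 18773, 16522 and 18406 in striatum WT replicate 5, Shank3-HT replicate 3 and Shank3-HM replicate 1, against 7901 to 13130 in the other striatum samples. Choroid plexus markers summed to between 5899 and 183879 in the hippocampus samples, and to 107570 in striatum Shank3-HT replicate 5, against 4814 to 8647 in the other striatum samples. In bulk tissue, fewer cells of a type and less RNA per cell cannot be told apart.

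Most members differed between the WT regions. Of the 33 members, 28 differed between cortex and striatum, 13 higher and 15 lower in the cortex (limma, adjusted p under 0.05), against 59% of all genes tested, of which 29.2% were higher and 29.8% lower. Between cortex and hippocampus 30 differed, 21 higher and 9 lower in the cortex, against 46.4% of all genes (23.1% higher, 23.3% lower). Between hippocampus and striatum 25 differed, 10 higher and 15 lower in the hippocampus, against 55.7% of all genes (28.2% higher, 27.5% lower). A difference of at least 2-fold past the threshold was found for 16, 9 and 13 members in these 3 comparisons, against 18.7%, 12.3% and 17.3% of all genes. The 5 samples of one region lay wholly above or below those of the other for 27, 22 and 23 members, against 45.9%, 31.8% and 38.2% of all genes. The median size of the difference was 0.91, 0.53 and 0.71 on the log2 scale, against 0.35, 0.26 and 0.32 over all genes tested. Without Scn10a, the 32 members that reached the mean of 10 in all regions gave 27 calls between cortex and striatum (12 higher, 15 lower in the cortex), 29 between cortex and hippocampus (20 higher, 9 lower) and 25 between hippocampus and striatum. Of these 32, 15, 8 and 13 passed the threshold with at least a 2-fold difference, and 26, 21 and 23 had regions that did not overlap. Their median size of difference was 0.89, 0.52 and 0.68 on the log2 scale. The same 28, 30 and 25 members were called, in the same direction, when the libraries with markers of another region were left out. Between hippocampus and striatum, 3 more were then called. Of the WT libraries, only striatum replicate 5 was left out in this setting. The differences between WT cortex and WT hippocampus therefore could not move, and only the shared estimate of spread changed. Hippocampus libraries with choroid plexus markers were kept.

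The cortex exceeded both other regions for 11 members (13.3% of all genes did so), among them Scn1a, Scn8a, Cacna1a, Cacna1b, Cacna1d, Cacna1g, Cacna2d1, Cacnb3 and Hcn3, and for 10 without Scn10a. The striatum exceeded both for 10 members (18.4% of all genes), namely Scn3a, Scn9a, Scn2b, Scn4b, Cacna2d2, Cacna2d3, Cacnb1, Cacnb2, Hcn2 and Hcn4. The hippocampus exceeded both for 1 member, Scn3b (11.1% of all genes). It was below both for 11 members (10.5% of all genes), the cortex for 8 (12.2%) and the striatum for 9 (18.6%). All 3 pairs of regions differed for 18 members, against 20% of all genes. Cacna1s was the one member with a single pair called. These counts describe the members and carry no test of the group as a whole.

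**Figure D1:**
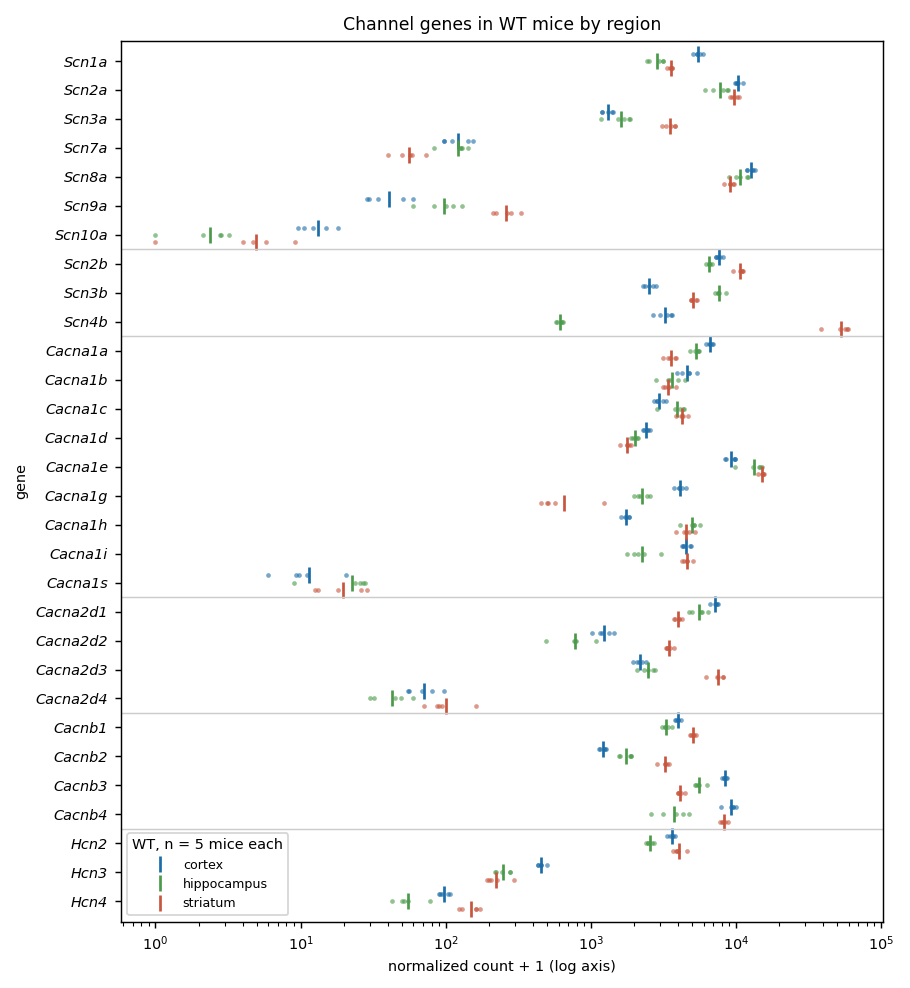
Normalized counts plus 1 (log axis) of 30 of the channel genes in WT mice, grouped by family from sodium channel α subunits at the top to HCN channels at the bottom. Points are single samples (5 per region) and vertical ticks are means, coloured by region; the striatal Scn4b samples lie between 38950 and 59777, far to the right of all others.

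**Figure D2:**
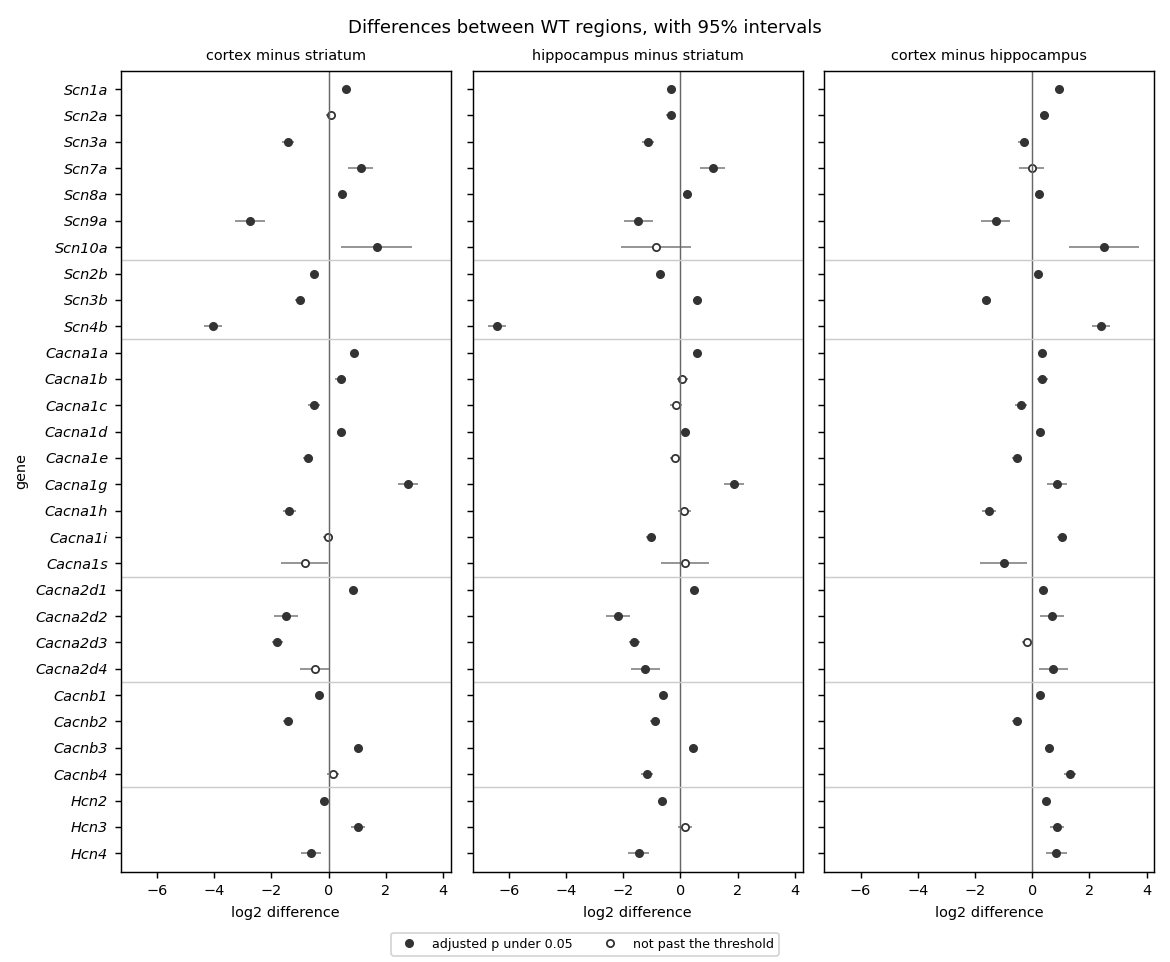
Log2 differences between WT regions for 30 of the genes, with 95% intervals from limma (n = 5 samples per region). Filled points passed an adjusted p of 0.05 and open points did not; Scn4b is the lowest point in the left and middle panels, at -4.02 and -6.42.

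Scn4b, whose protein links to the α subunit and provides the blocking particle of resurgent sodium current, had the widest range of all members. In the WT striatum its normalized counts were 59777, 58396, 56775, 52147 and 38950 in replicates 1 to 5, in the WT cortex 3341, 3013, 3622, 3567 and 2704, and in the WT hippocampus 642, 625, 633, 573 and 589. No region overlapped another. The cortex was lower than the striatum by 4.02 ± 0.16 on the log2 scale, a 16.3-fold difference, and the hippocampus was lower by 6.42 ± 0.16, an 85.8-fold difference (SE, n = 5 against 5, limma, adjusted p = 4.94e-24 and 7.18e-32). The lowest striatal value was that of replicate 5, the WT striatal library with the highest cortical marker total and, at 232327, the lowest spiny projection neuron marker total. Without the libraries that carried markers of another region, the differences were -4.13 and -6.53.

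Scn4b (ENSMUSG00000046480, chr9:45138395-45154152, plus strand, GRCm38) starts 8.32 kb downstream of the end of Scn2b (ENSMUSG00000070304, chr9:45117782-45130070, plus strand), which encodes the other β subunit that is joined to α subunits by a disulfide bond. Scn2b was also highest in the striatum, with normalized counts of 9635 to 11131, against 7265 to 8193 in the cortex and 6238 to 6799 in the hippocampus, and no region overlapped another. The cortex was lower than the striatum by 0.49 ± 0.04 and the hippocampus by 0.71 ± 0.04 (log2, limma, adjusted p = 5.53e-13 and 7.74e-18). The neighbours thus shared the direction, with differences of quite unequal size. The 250 bases before the RefSeq start of both genes are shown because the genes lie side by side and both were highest in the striatum. Those of Scn9a and Cacna2d3, genes of other families that were also higher in the striatum than in the cortex, are shown too. For Scn2b and Scn4b the RefSeq start lies downstream of the GENCODE starts given above, 45117782 and 45138395. Part of the Scn2b window and most of the Scn4b window therefore lie inside the genes as GENCODE places them. Capitals mark matches, on either strand, to a CCAAT box (CCAAT) or a GC box (GGGCGG), and a TATA box (TATAAA) and a CRE (TGACGTCA) were searched as well.
Scn2b, chr9:45117626-45117875, plus strand: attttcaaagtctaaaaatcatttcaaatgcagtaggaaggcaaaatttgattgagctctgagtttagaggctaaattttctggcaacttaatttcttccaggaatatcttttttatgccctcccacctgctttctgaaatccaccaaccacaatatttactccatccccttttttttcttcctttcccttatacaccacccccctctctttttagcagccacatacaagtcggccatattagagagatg
Scn4b, chr9:45138374-45138623, plus strand: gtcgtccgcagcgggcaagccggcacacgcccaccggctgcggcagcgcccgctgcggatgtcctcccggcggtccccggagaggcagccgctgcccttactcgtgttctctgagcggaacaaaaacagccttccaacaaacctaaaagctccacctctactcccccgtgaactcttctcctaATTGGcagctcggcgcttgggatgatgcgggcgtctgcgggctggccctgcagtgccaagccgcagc
Scn9a, chr2:66634963-66635212, minus strand: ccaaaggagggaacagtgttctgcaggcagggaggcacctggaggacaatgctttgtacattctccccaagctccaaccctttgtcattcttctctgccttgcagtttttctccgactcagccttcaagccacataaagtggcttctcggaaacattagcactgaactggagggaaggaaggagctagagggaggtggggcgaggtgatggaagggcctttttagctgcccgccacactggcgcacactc
Cacna2d3, chr14:29721865-29722114, minus strand: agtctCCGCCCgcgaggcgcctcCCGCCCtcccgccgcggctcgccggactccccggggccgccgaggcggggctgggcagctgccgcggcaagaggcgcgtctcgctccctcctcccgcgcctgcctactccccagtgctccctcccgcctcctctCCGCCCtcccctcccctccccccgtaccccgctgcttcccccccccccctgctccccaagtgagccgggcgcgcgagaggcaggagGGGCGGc

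These sequences are from RefSeq, build GRCm38.p6. They differed widely in composition, with a GC content of 38.4% for Scn2b, 66.0% for Scn4b, 54.4% for Scn9a and 80.0% for Cacna2d3. A CCAAT box was matched once, in Scn4b, and GC boxes 4 times, all in Cacna2d3. The match in Scn4b, at base 184 of its window, lies downstream of the GENCODE start of the gene. RefSeq promoters were found for 23 of the 33 member genes, 33 promoters in all, with a median GC content of 62.4% against 52.4% over all 32851 promoters. A GC box was present in 14 of the 33 and in 32.7% of all promoters, a CCAAT box in 7 and in 33.8%, a TATA box in 2 and in 12.4%, and a CRE in 0 and in 1.55%. These matches describe letters in the windows searched.

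Scn3b, a β subunit bound without a disulfide bond, showed another order and was highest in the WT hippocampus at 7549, 7597, 8556, 7170 and 7572, followed by the striatum at 5429, 4951, 4908, 5295 and 4924, and by the cortex at 2533, 2670, 2350, 2302 and 2803. The regions did not overlap, and the cortex was lower than the hippocampus by 1.60 ± 0.08, a 3.04-fold difference (log2, limma, adjusted p = 7.34e-21).

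Of the 3 major sodium channel α genes of the adult brain, Scn8a and Scn1a were called in all 3 pairs of regions and Scn2a in 2. Scn8a, the channel of nodes of Ranvier and axon initial segments, was 0.47 ± 0.07 higher in the cortex than in the striatum and 0.25 ± 0.07 higher than in the hippocampus (log2, limma, adjusted p = 5.01e-08 and 0.0017). Scn1a, the channel of inhibitory neurons in which loss of function causes Dravet syndrome, was 0.95 ± 0.07 higher in the cortex than in the hippocampus and 0.62 ± 0.07 higher than in the striatum (adjusted p = 1.96e-15 and 1.44e-10). Scn2a, the main channel of excitatory neurons and an autism risk gene, was lower in the hippocampus than in both other regions. Its difference between cortex and striatum was 0.08, with a 95% interval of -0.07 to 0.24 (adjusted p = 0.372).

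Scn3a and Scn9a were highest in the striatum. Scn3a, known as the α subunit of the embryonic brain, had normalized counts of 3081 to 3818 in the striatum, 1171 to 1872 in the hippocampus and 1195 to 1428 in the cortex. The cortex was lower than the striatum by 1.42 ± 0.10, and the hippocampus by 1.12 ± 0.10 (log2, limma, adjusted p = 3.73e-16 and 4.22e-13). Scn9a (ENSMUSG00000075316, chr2:66480080-66634962), best known from pain-sensing neurons, was at 263, 331, 221, 210 and 283 in the WT striatum, at 58.9, 112, 81.5, 99.1 and 128 in the hippocampus, and at 33.0, 58.4, 27.8, 28.4 and 49.9 in the cortex. The 3 regions kept the order striatum, hippocampus, cortex without overlap. The cortex was lower than the striatum by 2.74 ± 0.25, a 6.68-fold difference, and the hippocampus by 1.47 ± 0.25, a 2.76-fold difference (limma, adjusted p = 1.52e-12 and 3.78e-06).

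Further α genes were low in these tissues. Scn7a, which encodes a sodium-sensing relative of the voltage-gated channels, was at 39.0 to 71.7 in the striatum, 1.12 ± 0.22 below the cortex and 1.14 ± 0.22 below the hippocampus (adjusted p = 1.89e-05 and 1.77e-05). Scn10a, another channel of sensory neurons, had 8.55 to 17.1 in the cortex, 0 to 2.20 in the hippocampus and 0 to 8.17 in the striatum. In each of the lower regions, 1 WT sample was listed at 0.

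The T-type calcium channel α1 genes encode channels that open at low voltage and carry burst firing. Cacna1g (ENSMUSG00000020866, chr11:94408391-94474198) was at 3732, 4511, 4039, 4230 and 4080 in the WT cortex, at 1992, 2432, 2174, 2567 and 2110 in the hippocampus, and at 563, 507, 502, 456 and 1236 in the striatum. Replicate 5 was the only WT striatal sample above 563, and no region overlapped another. The cortex exceeded the striatum by 2.76 ± 0.17 on the log2 scale, a 6.79-fold difference, and the hippocampus exceeded it by 1.89 ± 0.17, a 3.71-fold difference (limma, adjusted p = 1.28e-17 and 1.16e-12). Without the libraries that carried markers of another region, the differences were 3.02 and 2.15.

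The other T-type genes did not follow Cacna1g. Cacna1h was at 1623 to 1846 in the WT cortex, against 4098 to 5647 in the hippocampus and 3855 to 5224 in the striatum. The cortex differed from them by -1.51 ± 0.12 and -1.37 ± 0.12 respectively, while the difference between hippocampus and striatum was 0.14 with an interval of -0.10 to 0.38 (log2, limma, adjusted p = 1.90e-14, 1.47e-13 and 0.313). Cacna1i was lower in the hippocampus, at 1781 to 3039, than in the cortex, at 4242 to 4923, and the striatum, at 4237 to 5067. The cortex and the striatum were above it by 1.03 ± 0.09 and 1.04 ± 0.09 (adjusted p = 3.22e-13 and 1.04e-13), and they differed from each other by -0.01, with an interval of -0.19 to 0.17. Each T-type gene thus had its lowest level in a different region.

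Of the neuronal high-voltage α1 genes, Cacna1a (P/Q type) and Cacna1b (N type), which trigger transmitter release, and Cacna1d (L type) were highest in the cortex, with excesses over the striatum of 0.91 ± 0.06, 0.42 ± 0.10 and 0.44 ± 0.07 (log2, limma, adjusted p = 4.26e-16, 0.000222 and 4.79e-07). Cacna1c, the main L-type gene of the brain, and Cacna1e (R type) were lowest in the cortex, 0.52 ± 0.10 and 0.71 ± 0.09 below the striatum (adjusted p = 2.69e-05 and 3.68e-09). Cacna1s, the skeletal muscle L-type gene, was near the limit of inclusion in every region, at 4.99 to 19.7 in the cortex, 7.95 to 26.7 in the hippocampus and 11.7 to 27.6 in the striatum. It differed between cortex and hippocampus with an adjusted p of 0.0417 (limma, -1.0 ± 0.41 on the log2 scale).

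Among the α2δ genes, whose products Cacna2d1 and Cacna2d2 are the binding sites of gabapentin, the order of regions split the family. Cacna2d3 (ENSMUSG00000021991, chr14:28904943-29721864, minus strand) was at 8125, 8218, 7400, 7546 and 6260 in the WT striatum, at 2418, 2072, 2272, 2150 and 1941 in the cortex, and at 2665, 2484, 2768, 2081 and 2310 in the hippocampus. The striatum stood above both other regions, which overlapped. The cortex was lower than the striatum by 1.79 ± 0.10, a 3.45-fold difference, and the hippocampus by 1.61 ± 0.10, a 3.05-fold difference (log2, limma, adjusted p = 9.21e-20 and 1.57e-18). Cacna2d2 was also highest in the striatum, at 3284 to 3735, against 1024 to 1456 in the cortex and 493 to 1079 in the hippocampus. The hippocampus was lower than the striatum by 2.18 ± 0.20, a 4.55-fold difference (adjusted p = 1.74e-12). Cacna2d1 ran the other way, with 6678 to 7593 in the cortex, 4764 to 6448 in the hippocampus and 3767 to 4238 in the striatum, and with the cortex 0.87 ± 0.07 above the striatum (adjusted p = 1.68e-13). Cacna2d4, best known from the retina, was at most 161 in any WT sample. Its excess in the cortex over the hippocampus was 0.74 ± 0.26 (adjusted p = 0.0161), and leaving out cortex WT replicate 2, hippocampus WT replicate 1 or hippocampus WT replicate 3 ended the call each time, with an adjusted p of up to 0.0591.

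The calcium channel β genes, which encode cytosolic partners of the high-voltage α1 subunits, also went in different directions. Cacnb2 was highest in the striatum, at 2881 to 3455, and lowest in the cortex, at 1146 to 1274, a difference of 1.42 ± 0.08 or 2.67-fold (log2, limma, adjusted p = 4.05e-19). Cacnb3 was highest in the cortex, at 8047 to 8635, and lowest in the striatum, at 3969 to 4488, a difference of 1.02 ± 0.07 or 2.03-fold (adjusted p = 1.09e-16). Cacnb4, in which loss of function causes epilepsy and ataxia in mice, was at 2620 to 4760 in the hippocampus, against 7856 to 9970 in the cortex and 7779 to 8781 in the striatum. The cortex exceeded the hippocampus by 1.32 ± 0.10, a 2.50-fold difference, and the striatum exceeded it by 1.17 ± 0.10, a 2.24-fold difference (adjusted p = 2.12e-14 and 3.85e-13). Cacnb1 was highest in the striatum, 0.35 ± 0.05 above the cortex and 0.60 ± 0.05 above the hippocampus (adjusted p = 1.87e-07 and 1.57e-13).

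Hcn4, the pacemaker channel of the heart and of thalamic neurons, had normalized counts of 124, 172, 161, 161 and 129 in the WT striatum, 90.7, 104, 89.5, 94.0 and 106 in the cortex, and 41.5, 76.7, 51.0, 53.9 and 48.7 in the hippocampus. No region overlapped another, and the hippocampus differed from the striatum by -1.46 ± 0.18, a 2.75-fold lower level (log2, limma, adjusted p = 3.72e-09). Hcn2, which is strongly gated by cyclic AMP, was at 3718 to 4611 in the striatum, 3349 to 3826 in the cortex and 2394 to 2721 in the hippocampus. The hippocampus was 0.66 ± 0.06 below the striatum (adjusted p = 1.85e-13), and the cortex 0.16 ± 0.06 below it (adjusted p = 0.015). Hcn3 was highest in the cortex, at 430 to 501, and was 1.04 ± 0.12 lower in the striatum and 0.88 ± 0.12 lower in the hippocampus (adjusted p = 1.30e-09 and 1.16e-07).

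To compare levels between genes, normalized counts were divided by the length of each gene's principal transcript in kilobases and expressed as a share of the family in each WT sample. In the sodium channel β family, Scn4b made up 64.0% ± 3.9 in the striatum (SD, n = 5), against 6.62% in the cortex and 1.45% in the hippocampus. In the α2δ family the leading gene was Cacna2d1 in the cortex and hippocampus, with 54.2% ± 1.5 and 48.0% ± 2.9, and Cacna2d3 in the striatum, with 62.2% ± 2.1.

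Hcn2 was the largest of the HCN family in every region, with 78.7% ± 0.8, 77.5% ± 1.8 and 91.2% ± 1.5 for cortex, hippocampus and striatum. Scn2a and Scn8a together led the sodium channel α family, with Scn2a at 37.1%, 36.5% and 39.6% and Scn8a at 36.0%, 40.1% and 29.4% in cortex, hippocampus and striatum. The α1 family was led by Cacna1a in the cortex, with 21.8% ± 0.3, and by Cacna1e in the hippocampus and striatum, with 23.0% ± 2.0 and 26.9% ± 0.8. Cacnb3 led the calcium channel β family in the cortex and hippocampus, with 54.2% ± 1.1 and 49.9% ± 3.0. In the striatum it had 29.4% ± 1.6, close to Cacnb2 at 26.9% ± 1.8 and Cacnb1 at 26.1% ± 1.0. When the length of all exons combined was used, Cacnb1 was the highest there and Cacnb2 the lowest. The principal transcript of Cacnb2 has 2117 bases and its combined exons 13228, so its place in the family depends on the length chosen. The lowest member in every region was Scn10a for the α family, Cacna1s for α1, Cacna2d4 for α2δ and Hcn4 for HCN.

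**Figure D3:**
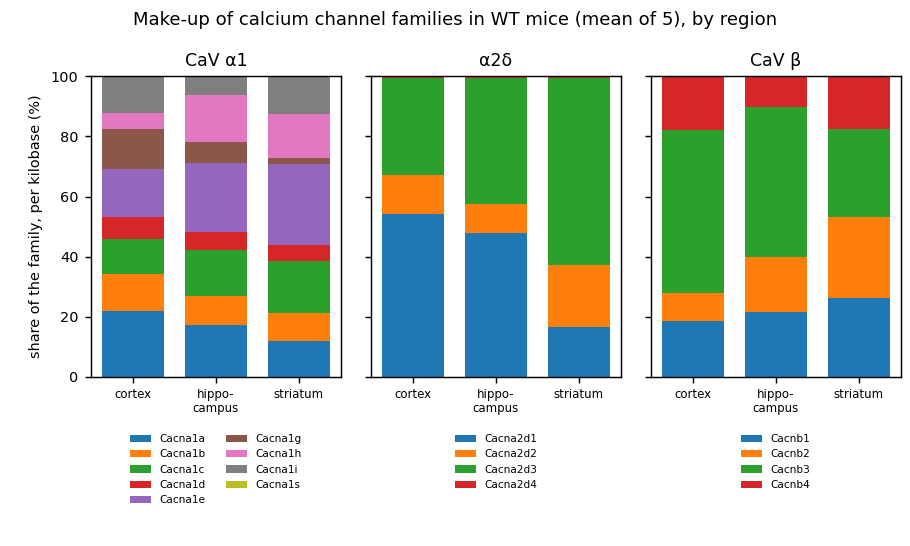
Make-up of 3 calcium channel families in WT mice. Each bar is a region (mean of 5 samples) and each colour a gene's share of the family in %, from normalized counts per kilobase of principal transcript; in the α2δ bars, Cacna2d3 is at 32.1% in the cortex and 62.2% in the striatum.

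Several members are neighbours in the genome (GRCm38). On chromosome 2, Scn3a and Scn2a lie 53.1 kb apart on opposite strands, and Scn1a, Scn9a and Scn7a follow each other on the minus strand with gaps of 39.2 and 38.5 kb. Within this cluster, Scn3a and Scn9a were highest in the striatum, Scn1a was highest in the cortex, and Scn7a was lowest in the striatum. On chromosome 6, Cacna1c and Cacna2d4 lie 40.1 kb apart on opposite strands. Neighbouring members thus often differed in their order of regions. Of the 33 members, 20 overlap a gene on the opposite strand, and the sources used here do not state whether quantification used strand.

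A list of 34 partner genes of these channels (calmodulins, TARP and γ subunits, FGF homologous factors, ankyrin G and others) was followed as well. Of these, 27 differed between WT cortex and striatum, 20 between cortex and hippocampus and 26 between hippocampus and striatum (limma, adjusted p under 0.05), against 59%, 46.4% and 55.7% of all genes. The lower ones in the cortex than in the striatum included Rem2, which encodes a GTPase that inhibits calcium channels, by 4.37 ± 0.22, and Cacng4, a TARP, by 2.67 ± 0.11 (log2, adjusted p = 1.60e-20 and 4.42e-23). Higher in the cortex than in the striatum were Stac2, a calcium channel adaptor, by 3.16 ± 0.21, and Fgf12, a regulator of sodium channel inactivation, by 1.17 ± 0.08 (adjusted p = 7.00e-17 and 2.24e-16). The hippocampus exceeded the cortex in Cacng8, another TARP, by 1.19 ± 0.08 (adjusted p = 1.40e-15). Kcne2, a candidate HCN partner that choroid plexus cells also make at a high level, had the largest difference between hippocampus and striatum, 6.10 ± 1.13 (adjusted p = 1.25e-05). Choroid plexus markers summed to 8880 to 183879 in the WT hippocampus and 4814 to 6763 in the WT striatum, and their part in the Kcne2 value was not tested.

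The comparison of genotypes asked whether loss of 1 or both copies of the Shank3 exons changed these channels. No member passed the threshold in any of the 9 comparisons of genotypes within a region (limma, adjusted p under 0.05). The background was low as well: the share of all genes called was 0% in the cortex for Shank3-HT against WT and 0.0121% for Shank3-HM against WT, 0.00603% for both in the hippocampus, and 0.00607% and 0.182% in the striatum, the latter made up of 0.158% higher and 0.0243% lower. Between Shank3-HM and Shank3-HT it was 0.00606%, 0.00603% and 0.14% in cortex, hippocampus and striatum, the last with 0.103% higher and 0.0364% lower. At an unadjusted p under 0.05, 0, 3 and 7 members were found in the cortex for Shank3-HT against WT, Shank3-HM against WT and Shank3-HM against Shank3-HT, against 2.68%, 5.49% and 4.87% of all genes. In the hippocampus there were 1, 3 and 0 of 32 members, against 5.26%, 4.73% and 2.09%. In the striatum there were 8, 4 and 1 of 32, against 7.43%, 7.43% and 6.49%. The groups did not overlap for 1 member in the cortex for Shank3-HT against WT (0.63% of all genes), 0 for Shank3-HM against WT (0.8%) and 1 for Shank3-HM against Shank3-HT (0.727%). In the hippocampus this held for 0 members in each comparison, against 0.797%, 0.736% and 0.447% of all genes, and in the striatum for 0, 1 and 1 members, against 0.971%, 1.86% and 1.27%. The partner genes, 32 of which were tested in the cortex and 33 in each other region, gave 0 calls in each comparison too, with 2, 3 and 2 in the cortex, 5, 3 and 0 in the hippocampus, and 1, 7 and 5 in the striatum at an unadjusted p under 0.05.

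The differences were bounded for most members. For Shank3-HM against WT, the 95% interval lay within ± 0.5 on the log2 scale, a 1.41-fold change, for 23 of 33 members in the cortex, 26 of 32 in the hippocampus and 25 of 32 in the striatum. For Shank3-HT against WT it did so for 25, 26 and 23. The median size of the Shank3-HM difference was 0.09, 0.07 and 0.07 in cortex, hippocampus and striatum, against 0.08, 0.07 and 0.08 over all genes tested. Members whose interval reached beyond this limit were mostly low, among them Cacna1s and Cacna2d4 in all regions. In every genotype, all striatal samples lay apart from all cortical ones for Scn4b (at least 38950 against at most 8492) and Cacna1g (at most 1236 against at least 2880).

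**Figure D4:**
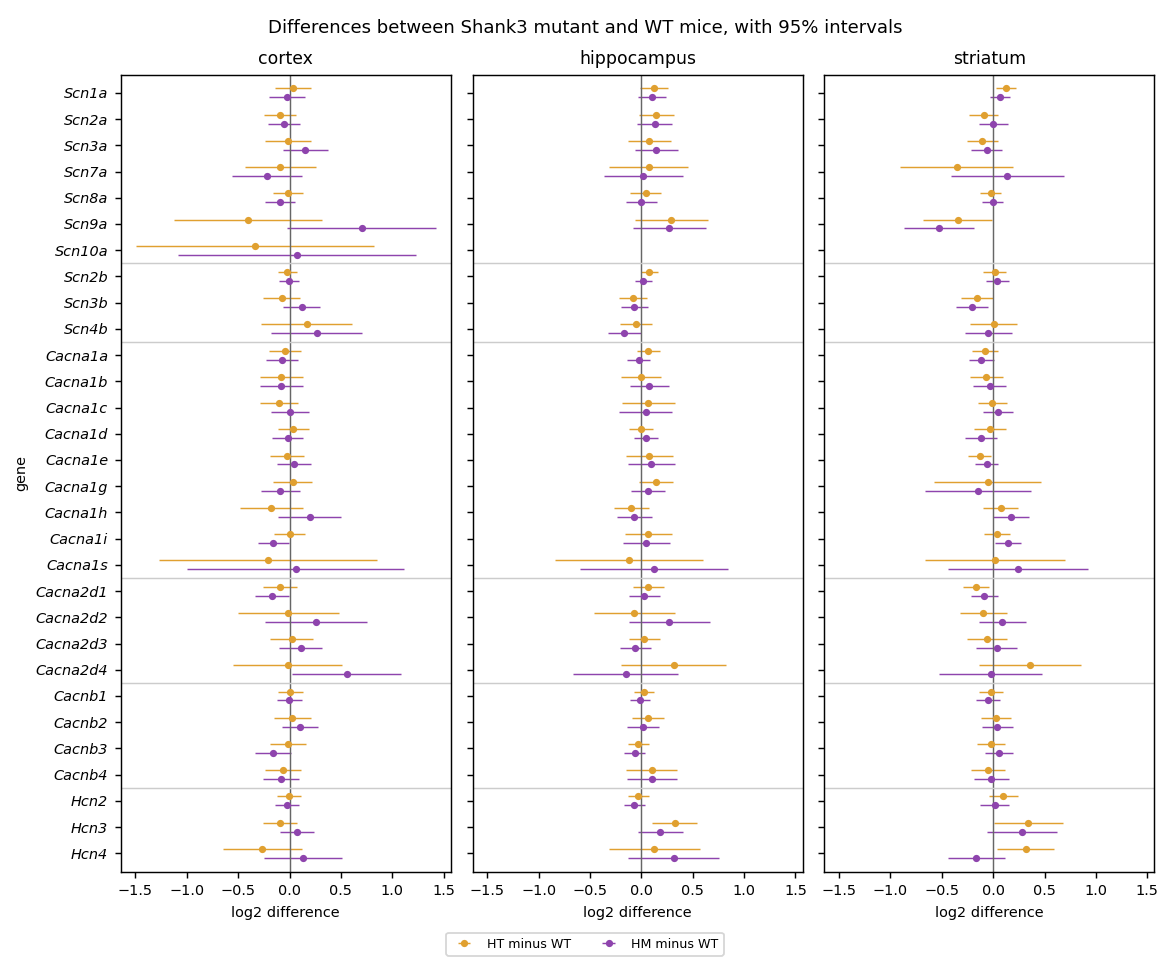
Log2 differences of Shank3-HT (orange) and Shank3-HM (purple) from WT mice for 30 of the genes in each region, with 95% intervals from limma (n = 5 samples per group). Scn10a was tested in the cortex alone; most points lie near 0, and the widest intervals belong to low genes such as Scn10a and Cacna1s.

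Scn9a had the smallest p value of the members for Shank3-HM against WT in the striatum. Its normalized counts there were 263, 331, 221, 210 and 283 in WT mice, 184, 181, 167, 300 and 205 in Shank3-HT mice, and 201, 148, 216, 164 and 173 in Shank3-HM mice. WT and Shank3-HM mice overlapped by a single Shank3-HM value, 216, which lay above the lowest WT value, 210. The difference was -0.53 ± 0.16 for Shank3-HM (limma, unadjusted p = 0.00418, adjusted p = 0.351) and -0.35 ± 0.16 for Shank3-HT (adjusted p = 0.661).

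In the cortex the values of Scn9a were 33.0, 58.4, 27.8, 28.4 and 49.9 in WT mice, 32.6, 28.8, 23.3, 35.1 and 23.4 in Shank3-HT mice, and 40.3, 168, 37.1, 79.8 and 45.1 in Shank3-HM mice. All Shank3-HM values lay above all Shank3-HT values (0.727% of all genes had such groups without overlap), with a difference of 1.11 ± 0.34 (limma, adjusted p = 0.959). The highest value, 168, was that of replicate 2, the cortical library with spiny projection neuron markers, and without it the difference was 0.75. In the hippocampus Scn9a was 58.9 to 128 in WT mice, 98.5 to 122 in Shank3-HT mice and 99.1 to 134 in Shank3-HM mice, and these groups overlapped.

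Scn3b in the striatum was 5429, 4951, 4908, 5295 and 4924 in WT mice, 4932, 4497, 4095, 5288 and 4112 in Shank3-HT mice, and 4465, 3833, 4423, 4531 and 4864 in Shank3-HM mice. Every Shank3-HM value lay below every WT value (1.86% of all genes had groups without overlap), by -0.21 ± 0.07 (limma, unadjusted p = 0.0107, adjusted p = 0.468). Cacna1i, with means of 4579 in WT and 5059 in Shank3-HM mice, differed by 0.14 ± 0.06 (adjusted p = 0.62).

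Hcn4 was the other member with groups apart. In the striatum it was 124, 172, 161, 161 and 129 in WT mice, 157, 212, 208, 149 and 208 in Shank3-HT mice, and 146, 121, 126, 148 and 121 in Shank3-HM mice. All Shank3-HM values lay below all Shank3-HT values (1.27% of all genes), by -0.48 ± 0.13, while the WT values overlapped both (limma, unadjusted p = 0.00185, adjusted p = 0.355). In the cortex, Hcn4 was 90.7, 104, 89.5, 94.0 and 106 in WT mice and 85.8, 78.2, 78.1, 88.7 and 71.8 in Shank3-HT mice, which lay below all WT values (0.63% of all genes), by -0.26 (SE 0.18, limma, adjusted p = 0.9997). Shank3-HM mice ranged from 79.3 to 186 there and overlapped both. The value relative to WT was thus negative for Shank3-HT in the cortex and positive, 0.32 ± 0.13, in the striatum (adjusted p = 0.656), and neither passed the threshold.

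Other members with the smallest p values had differences of modest size or low counts. Hcn3 in the hippocampus was 219, 275, 220, 279 and 243 in WT mice and 323, 310, 343, 244 and 330 in Shank3-HT mice, a difference of 0.32 ± 0.10 (limma, adjusted p = 0.926). Cacna2d1 in the striatum had means of 3976 in WT and 3543 in Shank3-HT mice (-0.17 ± 0.06, adjusted p = 0.632). Scn1a in the striatum had means of 3551 in WT and 3880 in Shank3-HT mice (0.13 ± 0.05, adjusted p = 0.632), and Cacna1e had means of 15150 and 13866 (-0.13 ± 0.05, adjusted p = 0.656). In the hippocampus, Shank3-HM mice differed from WT mice by -0.16 ± 0.07 in Scn4b (adjusted p = 0.92), and by -0.11 without Shank3-HM replicate 1. In the cortex, Cacna2d4 had means of 70.2 in WT and 106 in Shank3-HM mice (0.56 ± 0.25, adjusted p = 0.878). Cacna1i and Cacna2d1 were -0.16 ± 0.07 and -0.17 ± 0.08 in the same comparison (both adjusted p = 0.878), and -0.09 and -0.10 without replicate 2 of the Shank3-HM cortex. Cacna1h differed between Shank3-HM and Shank3-HT cortex by 0.37 ± 0.14 (adjusted p = 0.959), and by 0.19 without that library, while Scn3b differed by 0.19 ± 0.09.

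The remaining members among the 3 smallest p values of a comparison all had an unadjusted p above 0.05. Against WT, Shank3-HT mice differed by -0.10 ± 0.07 in Scn2a and -0.18 ± 0.14 in Cacna1h in the cortex, and by 0.08 ± 0.04 in Scn2b and 0.12 ± 0.07 in Scn1a in the hippocampus. Between Shank3-HM and Shank3-HT mice, the hippocampus differed by -0.47 ± 0.24 in Cacna2d4, 0.34 ± 0.19 in Cacna2d2 and -0.09 ± 0.05 in Cacna1a, and the striatum by 0.49 ± 0.26 in Scn7a and 0.11 ± 0.06 in Cacna1i. Leaving out 1 library moved several of these values, Scn2a to -0.06 without cortex Shank3-HT replicate 3, Scn1a to 0.07 without hippocampus WT replicate 1, Cacna2d2 to 0.22 without hippocampus Shank3-HM replicate 3, and Cacna1i to 0.06 without striatum Shank3-HT replicate 5, the striatal library with choroid plexus markers.

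**Figure D5:**
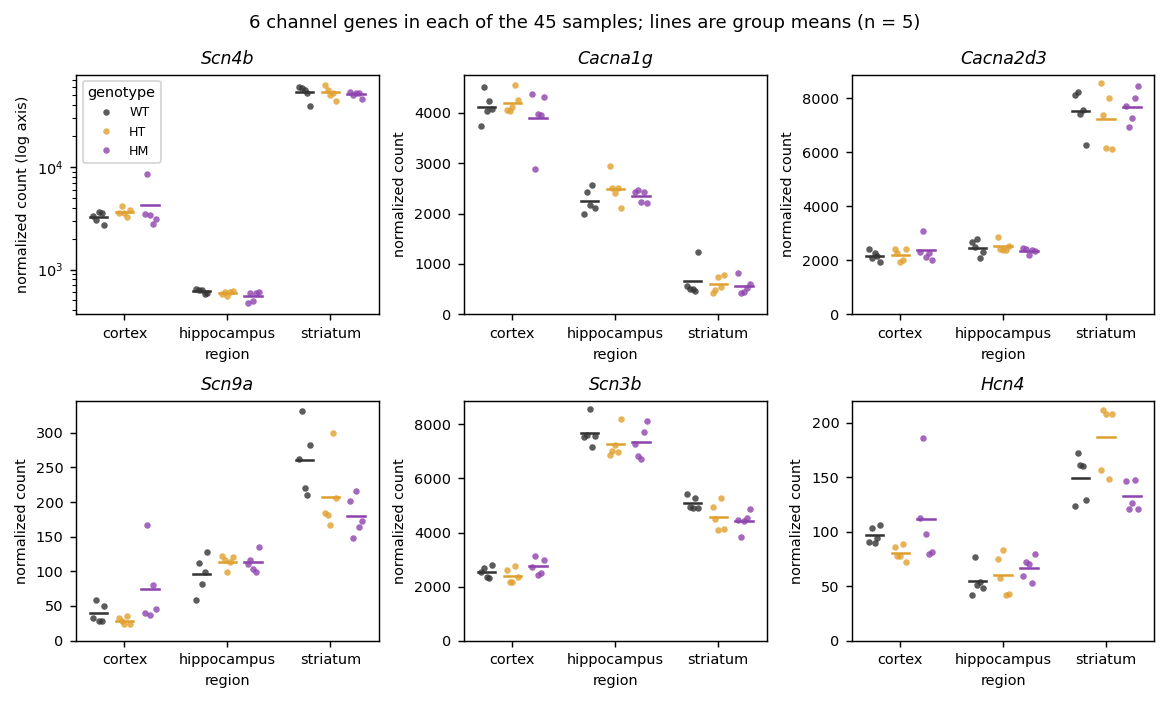
Normalized counts of Scn4b (log axis), Cacna1g, Cacna2d3, Scn9a, Scn3b and Hcn4 in each of the 45 samples, by region and genotype. Points are samples in the order of their replicate numbers and lines are group means (n = 5); in WT mice the regions stand apart for every gene shown except Cacna2d3 in cortex and hippocampus, while the genotypes of a region mostly overlap, and the second Shank3-HM cortex sample is the highest cortex sample for Scn4b, Cacna2d3, Scn9a, Scn3b and Hcn4 and the lowest for Cacna1g.

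Whether the effect of the homozygous deletion differed between regions was tested as an interaction. No member passed the threshold in any of the 3 pairs of regions, against 0.0517% of all genes for striatum against cortex, 0.069% for striatum against hippocampus and 0% for cortex against hippocampus. At an unadjusted p under 0.05 there were 4, 1 and 0 members, against 5.41%, 5.34% and 4.47% of all genes. The smallest p value was that of Scn9a for striatum against cortex, with a difference of effects of -1.23 ± 0.36 (limma, adjusted p = 0.412), which was -0.87 without replicate 2 of the Shank3-HM cortex. Scn3b followed with -0.33 ± 0.11 and Cacna1i with 0.30 ± 0.12 (adjusted p = 0.729 and 0.837). For striatum against hippocampus, Scn9a had -0.80 ± 0.36 (adjusted p = 0.916). Scn4b had a difference of effects of 0.43 for cortex against hippocampus, and of 0.15 without that library, in which its normalized count was 8492 against 2806 to 3445 in the other Shank3-HM cortex samples.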

How the data were processed

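RNA was made into stranded mRNA libraries. Per the labels and methods, the authors quantified transcripts with Salmon 1.1.0 (quasi-mapping, GC bias correction), imported them with tximport and normalized them with DESeq2 over all samples; the submitters' processing notes give DESeq2 1.26.0, R 3.6.2 and GRCm38. The deposited values are normalized counts (unit: signal) that the authors made, so no count test was applied, and depth is not given in the sources used here. The number of samples limits the precision.

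The scale was log2(value + 1). Genes averaging 10 or more in a region were tested with limma 3.58.1 (lmFit, eBayes with trend, two-sided) in R 4.3.3, fitting the 3 genotypes of a region together, or all 9 groups for comparisons of regions and interactions. P values were adjusted by Benjamini-Hochberg over all genes tested, with a threshold of 0.05. Scripts were tested on simulated data. Groups came from the labels. The deposited column names write KI for the samples labelled knock-out.

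Of the members, 3 are included in all counts but not reported individually here. Members and lists were chosen with earlier results of these data known. Named are, per family, the largest called difference between regions, the 3 smallest p values per genotype comparison, members whose groups do not overlap, the highest and lowest members per kilobase and those at the limit of 10; other members are given to complete each family and partner genes as examples, chosen after their values were seen. Gene positions and lengths are from GENCODE M21 (GRCm38), promoters from RefSeq. Alternatives were a pseudocount of 0.1, a minimum mean of 100 or none, quantile-normalized values, limma without trend, the replicate number as a block, the compared groups alone, leaving out each sample in turn, and, chosen after seeing the data, leaving out 4 libraries with markers of another region and lengths of all exons combined. Python 3.11.15, numpy 2.4.6, pandas 2.3.3 and matplotlib 3.10.9 were used.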

Additional observations from a re-analysis of the deposited data

Results flagged for a closer look

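In 20 of the 270 combinations of a reported member, region and genotype (7.41%), 1 of the 5 samples lay so far from the others that its gap passed Dixon's 95% critical value of 0.71. Chance flags about 1 in 20 groups, or 13.5 here. Cortex Shank3-HM replicate 2 accounted for 6 of them and striatum WT replicate 5 for 3. Striatum Shank3-HM replicate 1 accounted for 1. The marker totals of these libraries stood apart, and the part of those marker totals in these values was not tested.

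In cortex Shank3-HM replicate 2, Scn3a (2026), Scn4b (8492) and Cacna2d3 (3093) were above the other 4 samples of the group, which reached at most 1450, 3445 and 2318. Cacna1g (2880), Cacna1i (3338) and Cacnb3 (5614) were below them, the others being at least 3960, 4183 and 7853. In striatum WT replicate 5, Cacna1g (1236) was above the others, which reached at most 563, and Scn2b (9635) and Cacna1e (14158) were below them, the others being at least 10732 and 15249. In striatum Shank3-HM replicate 1, Cacnb3 (4998) was above the others, which reached at most 4220.

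The remaining values were in other libraries. In the hippocampus, Scn8a (12325) and Scn3b (8204) were high in Shank3-HT replicate 5, Cacna1d (1816) and Cacna1h (3966) were low in Shank3-HT replicate 1, and Cacna1s (7.95) was low in WT replicate 5. In the striatum, Scn8a (8496) was low in Shank3-HT replicate 2, Scn9a (300.3) was high in Shank3-HT replicate 4, Cacna1a (3116) was low in Shank3-HM replicate 2, and Cacna2d4 (161) was high in WT replicate 3. In the cortex, Cacnb1 (3526) was low in Shank3-HT replicate 3.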

How the results depend on the processing

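All 15 counts of members past the threshold stayed within 1.5 times the reported count under the alternatives run, at 27 to 29 members for cortex against striatum, 27 to 30 for cortex against hippocampus and 24 to 28 for hippocampus against striatum in WT mice, and at 0 in each comparison of genotypes and each interaction. No named difference reversed. Cacna2d4 between WT cortex and hippocampus lost its call in 3 settings, with 0.62 to 0.65 in place of 0.74; the cause was not tested. Of the family shares of leading genes, 12, which is most of them, moved by over 1 SD with the length of all exons combined. Cacna2d3 in the WT striatum went from 62.2% to 52.8%, and Cacna2d1 in the WT hippocampus from 48.0% to 53.7%. Cacnb1 in place of Cacnb3 was then highest in the striatum, and the leading gene changed nowhere else. Cacnb2 in place of Cacnb4 was then the lowest calcium channel β gene in hippocampus and striatum. The labels do not say that the replicate numbers pair samples, and correlations between the deviations of same-numbered samples ran from -0.099 to 0.197, not all over 0.1. A sample correlated best with its own number across regions in 22 of 30 WT, 19 of 30 Shank3-HT and 11 of 30 Shank3-HM cases, and across genotypes of a region in 27 of 90, which is a hint from the data that some numbers are shared across regions and not part of the design. With the replicate block 28, 30 and 26 members were called between regions and 0 between genotypes. The depth is unknown from the values used here, and low members such as Scn10a and Cacna1s had the widest intervals.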
